A study of Vitis vinifera with 15 samples.

Results

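The genes described here are a pair of UDP-glycosyltransferase (UGT) genes with neighbouring identifiers, VIT_17s0000g07070 and VIT_17s0000g07060, and a beta-glucosidase (BGLU) gene, VIT_03s0063g02490. They are 3 of the 31924 genes in a table of expression in grape skin, and their identifiers place them on chromosomes 17 and 3. They were taken from the study's own list of candidate aroma genes, which was drawn from comparisons of aromatic cultivars with a neutral one in the same libraries. The comparison with the neutral cultivar is therefore given below as a description, without a test.

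Skin RNA was sequenced from 5 table grape cultivars with 3 libraries each. The muscat type was represented by Shine muscat, Midknight Beauty and Centennial Seedless and the strawberry type by Summer Black, while Victoria is neutral and served as the control. All were sampled, per the labels, at the ripening stage, and all vines grew in a single vineyard. The strawberry and the neutral type are 1 cultivar each, so aroma type and cultivar cannot be told apart for them. The labels and the study's results give the libraries of a cultivar as biological replicates at the ripening stage. Its methods section alone assigns library numbers 1, 2 and 3 to 3 growth stages around ripening. The libraries were treated as replicates, and p-values measure only the spread between them.

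Monoterpene alcohols such as linalool and geraniol give muscat grapes their floral scent. In the berry much of this pool is held as glycosides, which have no odour. A UGT makes such glycosides by moving a sugar from a UDP-sugar onto the hydroxyl group of the alcohol, and a beta-glucosidase removes glucose from a glycoside and can release the volatile alcohol. Both enzyme families are large and act on many other substrates, and the table does not give the substrates of the genes described here.

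The study measured the same genes by quantitative PCR, and its primers, the only sequences of these genes used here, are printed to show which transcripts it took the identifiers to mean. The capitals mark the last 5 bases at the 3′ end, where extension starts.
VIT_17s0000g07070 forward: ttttagctcacccttcTGTTG
VIT_17s0000g07070 reverse: ccaccttccatttgtcGCATA
VIT_17s0000g07060 forward: gctgatacaacagttGGGTG
VIT_17s0000g07060 reverse: aagccttggaatgtgAAATA
VIT_03s0063g02490 forward: ctcgggcaacaatatcaAGTAC
VIT_03s0063g02490 reverse: caccctgtctcagcaaCAACA
The longest run that a primer of one UGT gene shares with a primer of the other, on either strand, is 6 bases. How alike the whole UGT genes are, and whether sequencing reads were divided between them, could not be examined.

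The values are FPKM, fragments per kilobase of transcript, scaled to the mapped fragments of each library. Their sum over all genes lay between 718652 and 786207 per library, and 9440 to 10976 genes were listed at 0. The table holds no read counts, so the depth behind a single value is unknown. The study's sequencing summary gives Shine muscat replicate 1 by far the lowest share of mapped reads and Summer Black replicate 3 the next lowest. Without the first, the difference in log2(FPKM + 1) of VIT_17s0000g07070 between Shine muscat and Summer Black was 2.29, against 2.10 with it, and that of the BGLU gene between Shine muscat and Midknight Beauty was 2.43, against 2.50. Without the second, the first of these differences was 2.33. Leaving out either library ended the 3 calls of the BGLU gene against Summer Black that are given below, and no other call on the 3 genes changed. Enzyme genes of anthocyanin synthesis served as a check of the labels, for skin colour only. An exchange of labels among the dark-skinned cultivars, or among the green-skinned ones, would not show in it. UFGT (VIT_16s0039g02230), which adds the sugar to anthocyanidins, lay between 30.8 and 84.6 FPKM in the dark-skinned Midknight Beauty and between 26.3 and 284 FPKM in the dark-skinned Summer Black, and reached at most 0.199 FPKM in the 3 green-skinned cultivars.

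VIT_17s0000g07070 was the more abundant UGT gene of the pair in every aromatic library. It had 6.75, 13.1 and 8.42 FPKM in Shine muscat, 11.6, 15.7 and 12.3 FPKM in Midknight Beauty, and 14.1, 13.5 and 16.4 FPKM in Centennial Seedless. Summer Black had 1.23, 0.802 and 2.26 FPKM, and Victoria 0.155, 0.179 and 0.145 FPKM. Every muscat library lay above every Summer Black library, and every Summer Black library above every Victoria library. The ratio of mean FPKM to Victoria was 59.1 for Shine muscat, 82.5 for Midknight Beauty, 91.9 for Centennial Seedless and 8.97 for Summer Black. Among the genes tested, 61.2% had a lower mean than this gene in Centennial Seedless, 17.9% in Summer Black and 2.18% in Victoria. In bulk tissue, fewer cells that express a gene and less RNA per cell cannot be told apart.

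VIT_17s0000g07060 was highest in Victoria and lay below 1 FPKM in every aromatic library. It had 0.0321, 0.0626 and 0.0870 FPKM in Shine muscat, was listed at 0 in 2 Midknight Beauty libraries and had 0.0701 FPKM in the other, and had 0.471, 0.194 and 0.293 FPKM in Centennial Seedless. Summer Black had 0.614, 0.733 and 0.408 FPKM, and Victoria 1.97, 3.74 and 2.81 FPKM. The Victoria libraries were the only ones above 1 FPKM, and this gene entered the test through them alone. The ratio of mean FPKM to Victoria was 0.0213 for Shine muscat, 0.112 for Centennial Seedless and 0.206 for Summer Black. Shine muscat and Midknight Beauty overlapped, as did Centennial Seedless and Summer Black, but every library of the first 2 cultivars lay below every library of the others.

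The BGLU gene VIT_03s0063g02490 was the most abundant of the 3 genes in every cultivar except Midknight Beauty, where VIT_17s0000g07070 had the higher mean. It had 64.4, 55.8 and 55.0 FPKM in Shine muscat and 83.6, 54.4 and 56.7 FPKM in Centennial Seedless. Summer Black had 25.4, 26.6 and 21.2 FPKM. The muscat cultivar Midknight Beauty had 12.1, 8.05 and 8.58 FPKM, within the range of Victoria, which had 3.96, 8.67 and 13.2 FPKM. The ratio of mean FPKM to Victoria was 6.79 for Shine muscat, 7.54 for Centennial Seedless, 2.84 for Summer Black and 1.11 for Midknight Beauty. The range of cultivar means among the muscat types was 9.43 to 14.7 FPKM for VIT_17s0000g07070 and 9.59 to 64.9 FPKM for the BGLU gene.

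**Figure D1:**
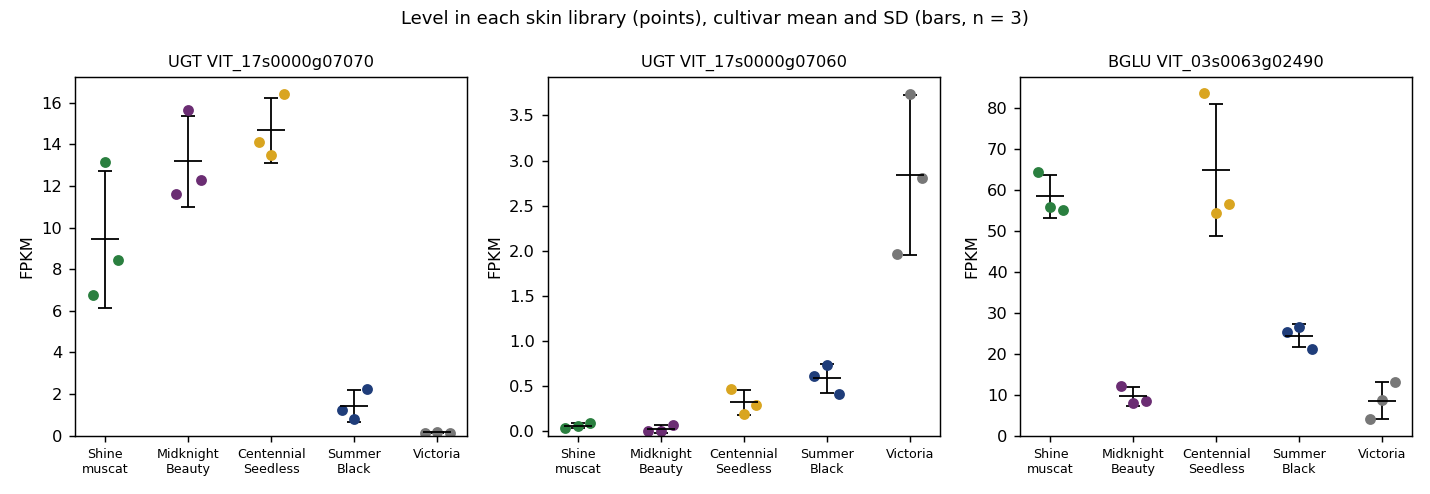
FPKM (vertical axis) of the 2 UGT genes and the BGLU gene in each of the 15 skin libraries (points), with the cultivar mean and SD as bars (n = 3). VIT_17s0000g07070 is above 6 FPKM only in the muscat cultivars, VIT_17s0000g07060 is above 1 FPKM only in Victoria, and the BGLU gene is low in Midknight Beauty and Victoria.

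Which gene of the UGT pair was the more abundant differed between the cultivars. VIT_17s0000g07070 made up 99.3% ± 0.317 of the summed FPKM of the pair in Shine muscat, 99.8% ± 0.328 in Midknight Beauty and 97.9% ± 0.966 in Centennial Seedless (SD, n = 3 each). In Summer Black it made up 66.7%, 52.2% and 84.7% in the 3 libraries, and in Victoria 7.32%, 4.57% and 4.90%. The sum of the pair was 6.78 to 16.7 FPKM in the muscat libraries, 1.54 to 2.67 FPKM in Summer Black and 2.12 to 3.92 FPKM in Victoria. The log2 ratio of VIT_17s0000g07070 to VIT_17s0000g07060, with a pseudocount of 1 FPKM on each, averaged 3.25 ± 0.43 in Shine muscat, 3.78 ± 0.24 in Midknight Beauty, 3.57 ± 0.20 in Centennial Seedless, 0.58 ± 0.59 in Summer Black and -1.70 ± 0.32 in Victoria. Over the 12 aromatic libraries the ratio differed between the 4 cultivars (exact permutation test of the F statistic, two-sided by construction, p = 0.003506). VIT_17s0000g07060 lay below 1 FPKM in all 12, so with this pseudocount the ratio mainly follows the level of VIT_17s0000g07070. The test is therefore not read as a difference in VIT_17s0000g07060. Over the 9 muscat libraries alone, a comparison added after seeing the data, the exact permutation test gave p = 0.193. Victoria was left out of both tests, but the aromatic libraries also entered the comparisons behind the choice of genes, so the test over 12 libraries is not independent of that choice.

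**Figure D2:**
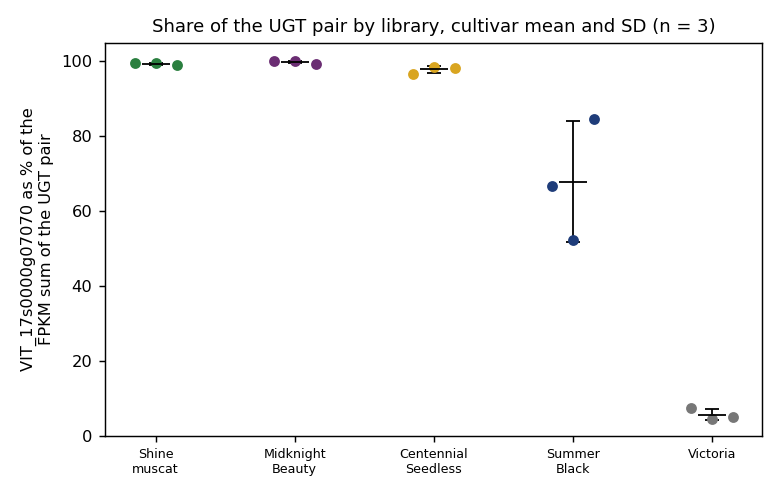
Share of VIT_17s0000g07070 in the summed FPKM of the UGT pair (vertical axis, percent) for each library (points), with the cultivar mean and SD (bars, n = 3). The muscat libraries lie between 96.8% and 100%, Summer Black between 52.2% and 84.7%, and Victoria between 4.57% and 7.32%.

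The 4 aromatic cultivars were then compared with each other in 6 contrasts with limma on log2(FPKM + 1), with Benjamini-Hochberg adjustment over the 18238 genes tested in each. A gene was taken to differ at an adjusted p of at most 0.01 and was a DEG where the log2 difference was also at least 2 in either direction. All of these libraries had also entered the comparisons with Victoria behind the choice of genes, so a contrast of a muscat cultivar with Summer Black sets 2 of those comparisons against each other and is not independent of the choice. Of the 18 tests on the 3 genes, 8 passed the threshold and 5 were DEGs, where over all genes tested 5.00% to 15.8% passed and 1.29% to 3.64% were DEGs, depending on the contrast.

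VIT_17s0000g07070 was higher in each muscat cultivar than in Summer Black. The log2 difference was 2.10 ± 0.24 (SE) for Shine muscat (limma, adjusted p = 3.8e-05), 2.58 ± 0.24 for Midknight Beauty (limma, adjusted p = 9.5e-06) and 2.73 ± 0.24 for Centennial Seedless (limma, adjusted p = 6.5e-06). As ratios of mean FPKM these were 6.59, 9.20 and 10.2. Over all genes tested, 15.8% differed between Shine muscat and Summer Black, 12.8% between Midknight Beauty and Summer Black and 10.9% between Centennial Seedless and Summer Black, and 3.64%, 2.69% and 2.71% in the same order were DEGs. The 3 differences kept an adjusted p of at most 0.01 under all 23 alternative settings or left-out libraries. The DEG call of Shine muscat against Summer Black held under 19 of 23 and was lost, with log2 differences of 1.82 to 1.97, under median-of-ratios scaling, quantile normalization and without Shine muscat replicate 2 or Summer Black replicate 2.

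Among the muscat cultivars no difference in VIT_17s0000g07070 passed the threshold. The log2 difference was -0.63 between Shine muscat and Centennial Seedless (95% interval -1.15 to -0.10, limma adjusted p = 0.0897), -0.48 between Shine muscat and Midknight Beauty (-1.001 to 0.05, limma adjusted p = 0.174) and -0.15 between Midknight Beauty and Centennial Seedless (-0.67 to 0.37, limma adjusted p = 0.782). The Shine muscat libraries lay wholly below those of Centennial Seedless, and the other 2 pairs overlapped. Of all genes tested, 9.49% differed between Shine muscat and Centennial Seedless, 11.1% between Shine muscat and Midknight Beauty and 5.00% between Midknight Beauty and Centennial Seedless. DEGs made up 2.24% between Shine muscat and Centennial Seedless.

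VIT_17s0000g07060 passed the threshold in 0 of its 6 contrasts, where 5.00% to 15.8% of all genes tested passed. Its lowest adjusted p values belonged to Midknight Beauty against Summer Black, with a log2 difference of -0.63 (limma, adjusted p = 0.0158), and to Shine muscat against Summer Black, with -0.57 (limma, adjusted p = 0.0218). At an unadjusted p under 0.05, 3 of the 6 contrasts passed in limma, as did 23.1% to 37.7% of all genes tested, depending on the contrast. All values behind these contrasts were below the filter's minimum of 1 FPKM, and the gene was tested only because of its level in Victoria, so no difference between aromatic cultivars is read from it. Calls gained under other settings rest on the same low values.

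The BGLU gene separated Midknight Beauty from the other muscat cultivars. It was higher in Shine muscat than in Midknight Beauty, by 2.50 ± 0.30 (SE) on the log2 scale (limma, adjusted p = 8.1e-05), and lower in Midknight Beauty than in Centennial Seedless, with a difference of -2.63 ± 0.30 (limma, adjusted p = 9.9e-05). Mean FPKM was 6.09 times as high in Shine muscat as in Midknight Beauty. Shine muscat and Centennial Seedless overlapped, with a log2 difference of -0.13 (95% interval -0.78 to 0.53, limma adjusted p = 0.817). Both differences that passed were DEGs, which 2.10% of genes were between Shine muscat and Midknight Beauty and 1.29% between Midknight Beauty and Centennial Seedless, and both held under all 23 alternatives.

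Summer Black took an intermediate place for the BGLU gene, close to the threshold of the test. The log2 difference was 1.23 ± 0.30 (SE) for Shine muscat against Summer Black (limma, adjusted p = 0.0091), -1.28 ± 0.30 for Midknight Beauty against Summer Black (limma, adjusted p = 0.0086) and 1.35 ± 0.30 for Centennial Seedless against Summer Black (limma, adjusted p = 0.0069). The libraries of each pair did not overlap. These calls held under only 6, 7 and 9 of the 23 alternatives, in that order, with highest adjusted p values in limma of 0.0402, 0.0316 and 0.0309, and kept their sign throughout.

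**Figure D3:**
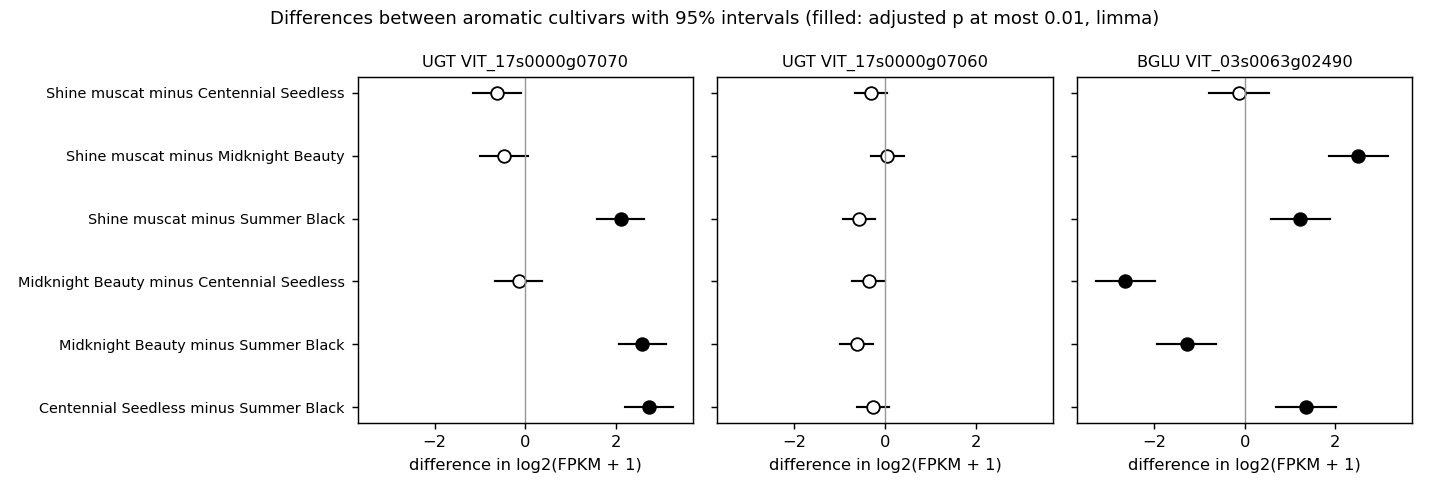
Differences in log2(FPKM + 1) (horizontal axis) between aromatic cultivars, first named minus second, for each gene, with 95% intervals from limma. Filled points passed an adjusted p of 0.01, which 3 contrasts of VIT_17s0000g07070, 0 of VIT_17s0000g07060 and 5 of the BGLU gene did.

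Set side by side, the UGT gene VIT_17s0000g07070 and the BGLU gene gave 4 combinations of levels. Shine muscat and Centennial Seedless had a high level of both, and Midknight Beauty a high UGT and a low BGLU level. Summer Black had a UGT level between those of the muscat cultivars and Victoria, and a middle BGLU level. Victoria had the lowest UGT level and a low BGLU level. Mean UGT and BGLU levels were 13.2 ± 2.18 and 9.59 ± 2.22 FPKM in Midknight Beauty, and 14.7 ± 1.55 and 64.9 ± 16.2 FPKM in Centennial Seedless (SD, n = 3 each). No correlation is given, since the 15 libraries fall into clusters by cultivar.

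**Figure D4:**
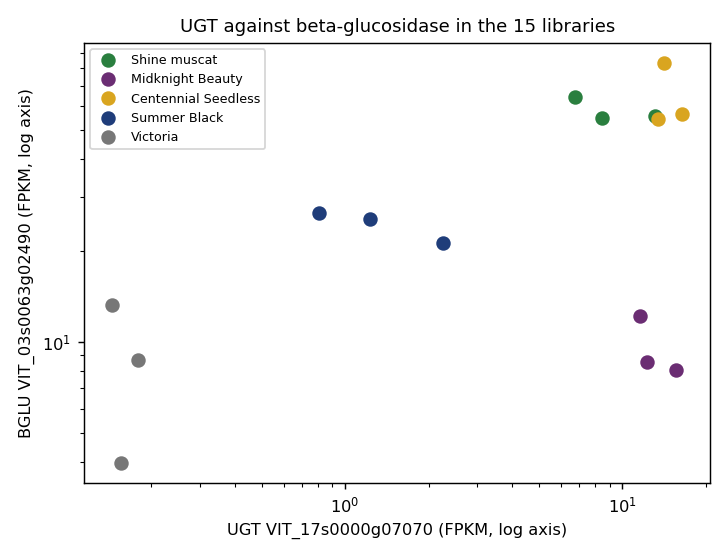
FPKM of the BGLU gene VIT_03s0063g02490 (vertical, log axis) against that of the UGT gene VIT_17s0000g07070 (horizontal, log axis) in the 15 libraries, coloured by cultivar. The Midknight Beauty libraries lie low on the BGLU axis at 11.6 to 15.7 FPKM of the UGT gene, apart from the other muscat libraries.

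The genes with identifiers within 50 of those of the members gave a view of the surrounding loci. Of 17 such genes in the table, 13 were tested. Beside the UGT pair, VIT_17s0000g07020 was lower in Summer Black than in each muscat cultivar. It had 6.18 to 6.96 FPKM in Shine muscat, 3.36 to 5.06 FPKM in Midknight Beauty, 5.86 to 10.7 FPKM in Centennial Seedless, 0.343 to 0.773 FPKM in Summer Black and 2.67 to 4.20 FPKM in Victoria. The log2 differences from Summer Black were 2.21, 1.60 and 2.44 for the muscat cultivars in that order (limma, adjusted p = 1.1e-05, 0.000225 and 7.2e-06). Unlike VIT_17s0000g07070, this gene was not near 0 in Victoria. The next identifier after the pair, VIT_17s0000g07080, averaged 0.798 FPKM in Shine muscat, 0.818 FPKM in Midknight Beauty and 1.18 FPKM in Centennial Seedless. Its mean was 0.134 FPKM in Summer Black and 0.304 FPKM in Victoria. No contrast of this gene passed, and the lowest adjusted p was 0.0166, for Centennial Seedless against Summer Black (limma). VIT_17s0000g07030, untested for its low level, had up to 0.870 FPKM in the aromatic libraries and was listed at 0 in all of Victoria's. VIT_17s0000g07120 was higher in Midknight Beauty than in Summer Black, by 0.68 on the log2 scale (limma, adjusted p = 0.000374), and than in Centennial Seedless, by 0.46 (limma, adjusted p = 0.0097), the second of which held under 4 of 23 alternatives.

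Next to the BGLU gene, 9 of 10 neighbours were tested. VIT_03s0063g02500 and VIT_03s0063g02520 were lower in Midknight Beauty than in Summer Black, with log2 differences of -0.64 and -1.01 (limma, adjusted p = 0.00196 and 0.00265). The direct neighbour VIT_03s0063g02480 averaged 29.8 FPKM in Shine muscat, 27.4 FPKM in Midknight Beauty, 27.1 FPKM in Centennial Seedless, 33.0 FPKM in Summer Black and 31.2 FPKM in Victoria, and passed in none of the 6 contrasts. In the contrasts between muscat cultivars, 0 of 27 limma tests on these neighbours passed, and 7 of 27 had an unadjusted p under 0.05. Over all genes 5.00% to 11.1% passed in these contrasts and 23.1% to 36.2% had such an unadjusted p. The lowest adjusted p values among these neighbours belonged to Shine muscat minus Midknight Beauty. The log2 difference was 0.77 for VIT_03s0063g02520 (limma, adjusted p = 0.0143) and, in the other direction, -1.27 for VIT_03s0063g02470 (limma, adjusted p = 0.0199). Each stayed short of the threshold under 20 of 23 alternatives.

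**Figure D5:**
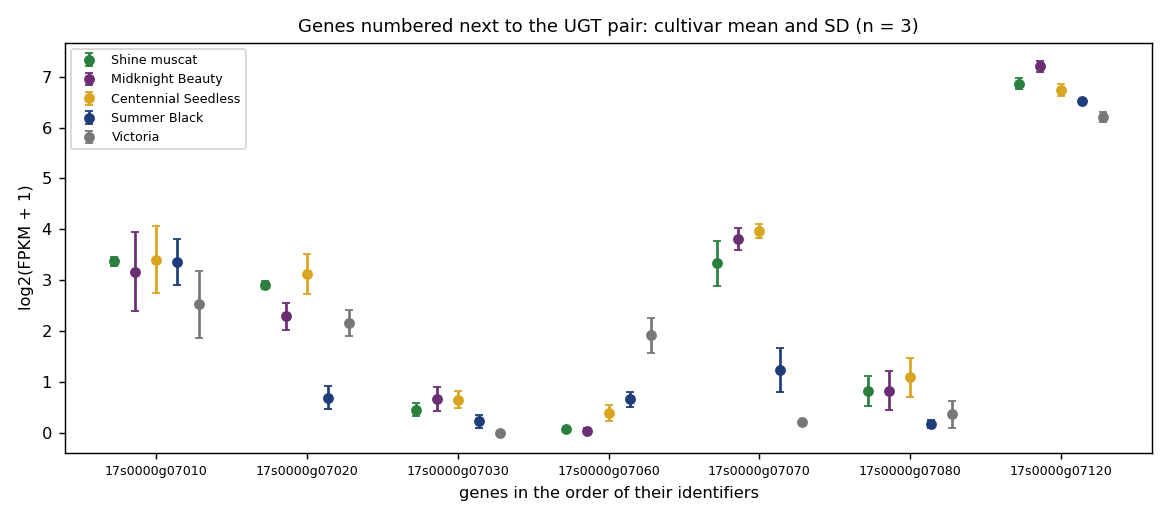
Mean log2(FPKM + 1) with SD (vertical axis, n = 3) in each cultivar for the UGT pair and 5 genes with neighbouring identifiers, in identifier order, without 2 neighbours that reached at most 0.112 FPKM. VIT_17s0000g07020 is low in Summer Black, and the UGT pair differs most between Victoria and the muscat cultivars.

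Upstream of the glycosides, the study's terpene genes consist of a DXS gene, for the entry enzyme of the plastid pathway to terpene precursors, and 6 terpene synthase (TPS) genes. The list was chosen on these libraries and is not independent evidence of a direction. All 7 genes were tested. Against Summer Black, 2 were higher and 3 lower in Shine muscat, 0 higher and 4 lower in Midknight Beauty, and 0 higher and 3 lower in Centennial Seedless. Of all genes tested, 11.1% were higher and 4.66% lower in Shine muscat, 6.85% higher and 5.93% lower in Midknight Beauty, and 6.42% higher and 4.49% lower in Centennial Seedless. The median log2 difference of the list was -1.31, -2.65 and -2.12 in these contrasts, against 0.13, 0.03 and 0.04 over all genes tested. The TPS genes VIT_13s0067g00370 and VIT_13s0067g00380 reached 1 FPKM only in Summer Black and were tested only because of their level there. VIT_13s0067g00050 was tested only because of its level in Victoria. VIT_13s0084g00010 reached 1 FPKM only in Summer Black and Victoria, and had at most 0.204 FPKM in the muscat libraries. The counts of lower genes and the medians against Summer Black are thus partly set by the filter, and no direction is read from them. Between the muscat cultivars, Shine muscat had 2 genes higher than Centennial Seedless, where 6.09% of all genes were higher, and 2 higher than Midknight Beauty, where 7.56% were, the DXS gene VIT_05s0020g02130 and the TPS gene VIT_00s0271g00010, and Midknight Beauty and Centennial Seedless differed in 0 (limma), with 1 of 7 at an unadjusted p under 0.05, as had 23.1% of all genes. The DXS gene averaged 82.1 ± 9.32 FPKM in Shine muscat, 32.0 ± 1.90 FPKM in Midknight Beauty and 36.3 ± 0.503 FPKM in Centennial Seedless (SD, n = 3 each). Among the muscat cultivars, the genes of this list that passed were higher in Shine muscat, whereas the BGLU gene was lower in Midknight Beauty.

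The genes with the most similar patterns were sought by Pearson's r of log2(FPKM + 1) over the 15 libraries, which largely reflects the 5 cultivar means. By Spearman's rho, or by the cultivar means alone, other genes ranked first for each member. For VIT_17s0000g07070 they were VIT_00s0193g00160 (r = 0.934), VIT_05s0077g01440 (r = 0.931) and VIT_13s0073g00310 (r = 0.926). VIT_00s0193g00160 averaged 9.08, 9.48 and 7.61 FPKM in Shine muscat, Midknight Beauty and Centennial Seedless, 3.23 FPKM in Summer Black and 1.14 FPKM in Victoria. The others were not higher in Summer Black than in Victoria. VIT_05s0077g01440 averaged 0.383 FPKM in Summer Black and 0.466 FPKM in Victoria, and VIT_13s0073g00310 averaged 17.9 and 19.0 FPKM. For VIT_17s0000g07060 they were VIT_05s0029g01540 (r = 0.962) and the newly assembled genes Vitis_vinifera_newGene_2136 (r = 0.950) and Vitis_vinifera_newGene_907 (r = 0.950). VIT_05s0029g01540 was listed at 0 in every muscat library and averaged 1.73 FPKM in Victoria. Like VIT_17s0000g07060, both VIT_05s0029g01540 and Vitis_vinifera_newGene_2136 reached 1 FPKM only in Victoria and were tested only because of their level there. Their r values thus mainly reflect Victoria against the other cultivars, and nothing further is read from them. For the BGLU gene they were VIT_18s0001g02810 (r = 0.953), VIT_18s0001g12100 (r = 0.942) and VIT_00s0912g00010 (r = 0.939). VIT_00s0912g00010 averaged 7.79 FPKM in Shine muscat, 0.291 FPKM in Midknight Beauty, 7.22 FPKM in Centennial Seedless, 3.92 FPKM in Summer Black and 0.310 FPKM in Victoria, and thus was low in the same 2 cultivars as the BGLU gene.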

How the data were processed

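The authors deposited FPKM values of 31924 genes, 1997 of them newly assembled, for 15 skin libraries, without read counts. The submitters' processing notes name HISAT2 and StringTie, whereas the methods name Bowtie2 and RSEM with the PN40024 genome. Library kits also differ between labels and methods. Ratios of a gene's low values in different libraries were whole within 0.05 in 10.2% of cases. Such ratios also carry the depths of the libraries, so this check cannot show whether reads could be recovered, and none were.

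Genes with at least 1 FPKM in at least 3 libraries (18238) were compared on log2(FPKM + 1) with limma 3.58.1 (trended eBayes, all 15 libraries) in R 4.3.3. Fold changes on this scale understate those of low genes. The exact permutation test was run with scipy 1.17.1 and numpy 2.4.6 in Python 3.11.15. Both were tested on simulated data. The gene list of RefSeq matched 0 identifiers. Named genes were the 3 members, the 3 genes most correlated with each, neighbours within 50 identifier numbers, the terpene list and a colour check. Members and lists were chosen with earlier results of these data known. Alternatives were a pseudocount of 0.1, other filters, scalings, variance models, libraries and thresholds, a replicate block, and each library left out.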

Additional observations from a re-analysis of the deposited data

How the results depend on the processing

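All values below are log2 differences unless named otherwise, in the order given. The BGLU contrasts with Summer Black lost their call as follows. Shine muscat minus Summer Black gave 1.26 with a pseudocount of 0.1, 1.07 with median-of-ratios scaling, 1.13 with quantile normalization, and 1.23 without a filter, without a variance trend and with the replicate block. Midknight Beauty minus Summer Black gave -1.36 with a pseudocount of 0.1, and -1.28 without a filter, with only the 6 libraries compared and with the block. Centennial Seedless minus Summer Black gave 1.39 with a pseudocount of 0.1, and 1.35 under the other 3 of these settings. Leaving out a library gave 1.13 to 1.29, -1.44 to -1.17 and 1.16 to 1.46, and ended the call for 11, 12 and 10 of the 15 libraries. The first held only without Midknight Beauty replicate 1, Centennial Seedless replicate 1, or Victoria replicate 1 or 3, the second only without Centennial Seedless replicate 1 or Victoria replicate 1 or 3, and the third only without a Midknight Beauty library or Victoria replicate 1 or 3. The cause was not tested.

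VIT_17s0000g07060 gained calls with a pseudocount of 0.1 (Shine muscat minus Summer Black -2.08, Midknight Beauty minus Centennial Seedless -1.76, Midknight Beauty minus Summer Black -2.49), with quantile normalization (-0.67 and -0.74 for the contrasts with Summer Black) and with median-of-ratios scaling (-0.64 for Midknight Beauty). Leaving out a library gave -0.66 to -0.51 for Shine muscat and -0.71 to -0.56 for Midknight Beauty, with calls without Victoria replicate 1 and, for Midknight Beauty, also without Victoria replicate 2. A filter at 5 FPKM removes this gene, and the UGT ratio without a pseudocount was not run because 2 libraries list it at 0. The permutation p of the UGT ratio was 0.1929 over the 9 muscat libraries and 0.000649 to 0.00818 with a library left out.

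Against Victoria, a pseudocount of 0.1 moved VIT_17s0000g07060 to -4.16, -4.58, -2.82 and -2.08, and VIT_17s0000g07070 to 5.14, 5.67, 5.83 and 2.45, for Shine muscat, Midknight Beauty, Centennial Seedless and Summer Black. With a library left out, the BGLU difference ranged from 2.34 to 3.10 for Shine muscat, -0.16 to 0.59 for Midknight Beauty, 2.47 to 3.22 for Centennial Seedless and 1.11 to 1.87 for Summer Black. For Midknight Beauty it was 0.25 with all libraries and changed sign without Victoria replicate 1.

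The number of genes that differed was 1114 for Shine muscat minus Centennial Seedless and 567 for Midknight Beauty minus Centennial Seedless with a filter at 5 FPKM, against 1731 and 911. With only the 6 libraries compared it was 346 for Midknight Beauty minus Centennial Seedless, 623 for Midknight Beauty minus Summer Black and 677 for Centennial Seedless minus Summer Black, against 911, 2331 and 1989, and DEGs were 155, 301 and 321, against 236, 491 and 495. For all 6 contrasts in the order Shine muscat minus Centennial Seedless, minus Midknight Beauty and minus Summer Black, Midknight Beauty minus Centennial Seedless and minus Summer Black, and Centennial Seedless minus Summer Black, DEGs were 409, 383, 663, 236, 491 and 495. They were 902, 878, 1379, 536, 1132 and 1123 with a pseudocount of 0.1, and 1037, 1122, 1794, 572, 1306 and 1241 with the thresholds of the methods. With a library left out, the genes that differed were 962 to 1888, 1112 to 2230, 1743 to 2913, 530 to 1013, 1421 to 2405 and 1156 to 2007. The lowest came without Shine muscat replicate 1 in the first 3, then without Centennial Seedless replicate 3, Summer Black replicate 3 and Centennial Seedless replicate 2.

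Library numbers were not taken to pair the samples. The labels and the study's results give them as replicates at the ripening stage, and its methods section alone assigns them to growth stages. Whether the numbers pair libraries across cultivars stays unsettled. Deviations of same-numbered libraries correlated at -0.345 to 0.598, above 0.1 in 13 of 30 pairs, with a mean of 0.0843 against -0.0416 for other pairs, and 9 of 15 libraries were closest to their own number. Under the replicate block, the 3 BGLU contrasts with Summer Black missed the threshold, and no other call on the 3 genes changed. Median-of-ratios scaling moved Shine muscat replicate 1 most, by -0.195 on the log2 scale. The median difference of all genes was 0.10 to 0.13 in the Shine muscat contrasts. Depth per value is unknown, which limits the values under 1 FPKM most. Of the 9 likenesses between genes, 3 moved by 0.1 or more as Spearman's rho, and 0 on unlogged FPKM or cultivar means. The ranks were less stable than the values. By cultivar means, the named genes ranked 40, 45 and 70 for VIT_17s0000g07070 and 12, 16 and 17 for VIT_17s0000g07060. For the BGLU gene they ranked 17, 83 and 26. By Spearman's rho the ranks in the same order were 124, 2 and 99, then 15, 47 and 4, then 2, 5 and 49.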
